A study of Mus musculus with 6 samples.

Results

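Small nucleolar RNA (snoRNA) genes were followed across 6 RNA-seq libraries of mouse embryos at the 4-cell stage. They were chosen by symbol (Snora or Snord followed by a digit) and by a value above 0 FPKM in at least 2 of the 6 libraries, which left 59 genes, 29 Snora and 30 Snord, of 141 rows with such a symbol (42 Snora and 99 Snord) among 55335 rows. FPKM is the number of fragments scaled by gene length and by the size of the library. The 3 libraries of the group labelled Con came from control embryos, for which the labels name no agent or vehicle. The 3 of the group labelled DRB came from zygotes kept from 6 h after fertilization in KSOM with 20 µM of 5,6-dichloro-1-β-D-ribofuranosylbenzimidazole (DRB) for 20 h, washed, and cultured for a further 26 h in KSOM without it. The labels give no mouse strain, number of embryos per library or maternal age. DRB blocks the kinase that lets RNA polymerase II pass from initiation into elongation, and its effect is reversible. Each library holds the RNA of whole embryos, so fewer cells and less RNA per cell cannot be told apart. Values above 0 chose these genes, so the counts of libraries in which they were found are a description.

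SnoRNAs are short nuclear RNAs that work inside protein complexes in the nucleolus. Box C/D RNAs, here the Snord genes, guide the methyltransferase fibrillarin to ribosomal RNA, and box H/ACA RNAs, here the Snora genes, guide the pseudouridine synthase dyskerin. A few of them, among them those of Snord118, Snord13, Snord14, Snord22 and Snora73 genes, act instead in modifying or cutting the ribosomal RNA precursor in ways on which ribosome production depends. Most mammalian snoRNAs lie in introns of genes for ribosomal and other growth-related proteins or of non-coding host genes, and are freed from the spliced-out lariat by the debranching enzyme Dbr1 and by exonuclease trimming. The mature RNAs carry no poly(A) tail, whereas these libraries were primed with oligo-dT, amplified as long cDNA and then sheared.

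The boxes that give both classes their names could be read in the GENCODE M21 transcripts (GRCm38, the assembly also called mm10). In the C/D sequences the capitals mark the box C TGATGA within the first 25 bases and the box D CTGA within the last 12. Snord104 and Snord14e are shown because they were the members that passed the test between groups, and Snord14a as another copy of the U14 RNA. Snord50a and Snord50b are shown because they are near-identical and each sequence has a further copy. Snord118 is shown as the member that was lower in all DRB libraries, and Snord80 as the C/D gene with the highest mean FPKM.
Snord104: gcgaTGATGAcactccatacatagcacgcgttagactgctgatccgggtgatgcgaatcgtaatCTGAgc
Snord14e: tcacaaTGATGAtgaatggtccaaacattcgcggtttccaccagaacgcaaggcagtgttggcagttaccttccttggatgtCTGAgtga
Snord14a: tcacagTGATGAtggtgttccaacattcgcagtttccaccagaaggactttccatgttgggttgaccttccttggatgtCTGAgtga
Snord50a: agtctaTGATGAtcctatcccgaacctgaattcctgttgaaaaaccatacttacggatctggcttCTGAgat
Snord50b: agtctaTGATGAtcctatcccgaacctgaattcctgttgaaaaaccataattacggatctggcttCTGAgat
Snord80: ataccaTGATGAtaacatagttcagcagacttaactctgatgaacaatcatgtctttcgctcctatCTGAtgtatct
Snord118: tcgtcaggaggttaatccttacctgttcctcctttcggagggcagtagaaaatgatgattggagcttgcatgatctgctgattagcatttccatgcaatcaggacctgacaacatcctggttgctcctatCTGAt

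Snord104 is at chr11:106500993-106501062 on the plus strand, without a host gene on that strand. Snord14e is at chr9:40804748-40804837 on the plus strand inside Hspa8, and Snord14a is at chr7:116333171-116333257 on the minus strand inside Rps13. The longest run of bases that these U14 genes share is 23. Snord50a and Snord50b, both inside Snhg5 on chromosome 9, differ by C50A, with positions counted from the 5′ end and the base of Snord50a given first. Each of these 2 sequences also occurs base for base in a gene model outside the Snora and Snord rows (Gm24463 for Snord50a and Gm26135 for Snord50b). Their values are therefore uncertain. Snord80 is at chr1:161037604-161037680 on the plus strand inside Gas5, within another row of that symbol, of 81 bases, that was listed at 0 in all libraries, and Snord118 at chr11:69073427-69073561 on the plus strand has no host there.

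The H/ACA sequences below are the Snora genes of highest mean FPKM among those that lie clear of all host exons, with the ACA of the last 6 bases in capitals.
Snora21: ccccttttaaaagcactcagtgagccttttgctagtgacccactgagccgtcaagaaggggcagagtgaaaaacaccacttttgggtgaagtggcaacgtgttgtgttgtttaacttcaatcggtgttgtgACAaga
Snora57: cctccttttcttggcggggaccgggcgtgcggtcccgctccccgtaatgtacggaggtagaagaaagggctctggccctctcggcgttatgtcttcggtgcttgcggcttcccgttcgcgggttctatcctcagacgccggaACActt
Snora73b: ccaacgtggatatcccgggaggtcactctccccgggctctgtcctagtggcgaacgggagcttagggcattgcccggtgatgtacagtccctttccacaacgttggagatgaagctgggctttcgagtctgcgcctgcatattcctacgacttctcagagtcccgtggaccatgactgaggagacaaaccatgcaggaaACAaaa

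Snora21 is at chr11:97781639-97781775 on the minus strand in an intron of Rpl23. Snora73b, the U17 RNA, is at chr4:132352322-132352526 on the minus strand in an intron of Rcc1. Snora57 is at chr19:8888538-8888685 on the minus strand, without a host on that strand and with Lbhd1 on the other. The libraries' strand is not stated, so fragments of opposite genes cannot be told apart. Searched on the transcript strand, both C/D boxes stood in their windows in 20 of the 30 Snord members (66.7%), in 45 of the 69 other Snord rows (65.2%) and in 2 of 5264 other genes of the same length range. The ACA stood in 26 of the 29 Snora members (89.7%), in 13 of the 13 other Snora rows and in 84 of 1613 other genes of their length range (5.2%). With the H box (ANANNA in the middle of the gene) it stood in 23 of 29 (79.3%), again in 13 of 13, and in 57 of 1613 (3.5%). A match in these windows describes the letters only.

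The libraries had 18485 to 22102 genes above 0 FPKM, Con replicate 1 the most. Their depth, estimated from the steps of low values, came to between 21600000 and 25300000 fragments. Pairs of Con libraries correlated at 0.935 to 0.944 on the log2(FPKM + 1) scale, pairs of DRB libraries at 0.909 to 0.937, and pairs across groups at 0.869 to 0.915. Of 10 markers of cleavage-stage embryos 7 were tested, with Dppa3, a maternal factor, at 13434 to 24780 FPKM and Klf17 at 35.3 to 139 FPKM. The others were too low for the test. Pou5f1 was at 3.58, 0.56 and 0.11 FPKM in Con and 0.15, 0 and 0.07 in DRB. Sox2 was at 0 to 0.07 FPKM, and Cdx2, a later trophectoderm factor, was listed at 0 in all libraries. Of the 7 tested 5 had a log2 fold change below 0 (median -0.46), among them the pluripotency factor Nanog, at 11.4, 16.8 and 12.2 FPKM in Con and 6.99, 4.77 and 3.04 in DRB (-1.32, SE 0.40, limma adjusted p = 0.115), and Tead4, a trophectoderm regulator (-0.80, SE 0.34, adjusted p = 0.246). Cumulus cell markers summed to 17.95 to 23.5 FPKM in Con and 19.9 to 28.3 in DRB, almost all from Amhr2, with Cyp19a1, Fshr, Inha and Has2 at 0. Sperm markers summed to 8.97 to 19.1 and 7.30 to 17.4 FPKM, almost all from Ldhc, with Tnp2 at 0, and blood markers to 74.3 to 114 and 47.0 to 87.3 FPKM, most of it from Hba-a1 and Hba-a2, with Hbb-bh1 at 0. No gene of these 4 lists passed the limma test (0 of 13 tested at adjusted p below 0.05, against 2 at unadjusted p below 0.05, Nanog and Tead4), and their part in the snoRNA values was not tested.

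A lower limit of gene length cut through the C/D genes. Each library had a shortest length with any value above 0, here called its floor, so by definition every shorter gene was listed at 0 there. This floor was 74 bases in Con replicate 1, 71 in Con replicates 2 and 3, 69 in DRB replicates 1 and 3 and 70 in DRB replicate 2, with 676 to 926 shorter genes. The floor was thus higher in every Con library than in every DRB library, and it runs through the range of C/D genes, which are 64 to 238 bases long. None of the 10 Snord rows under 69 bases is a member. Of the 19 rows of 69 to 73 bases 5 are members (Snord42b, Snord104, Snord50a, Snord50b and Snord65). Members were 13 of 31 at 74 to 89 bases, 9 of 35 from 90 to under 130 bases and 3 of 4 from 130 bases. Above the limit the share of members thus did not rise steadily with length. Rows of at least 74 bases that are not members include 17 hosted by Snhg14 alone, which bear on these shares. The Snora members, of 121 to 205 bases, lie clear of it.

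Mitochondrial tRNA genes, which are short and whose transcripts are abundant, showed the same edge. Those of the 22 that were shorter than a library's floor were at 0 there by its definition. Every one at or over it was above 0, which the definition does not fix, and this made 1, 4 and 4 genes above 0 in Con and 11, 5 and 11 in DRB. The serine tRNA gene mt-Ts1, of 69 bases, was at 15625 and 13102 FPKM in DRB replicates 1 and 3 and listed at 0 in the other 4 libraries. The glutamine tRNA gene mt-Tq, of 71 bases, was at 9039 to 13221 FPKM in 5 libraries and listed at 0 in Con replicate 1. A listed 0 below the floor therefore does not give a level.

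**Figure D1:**
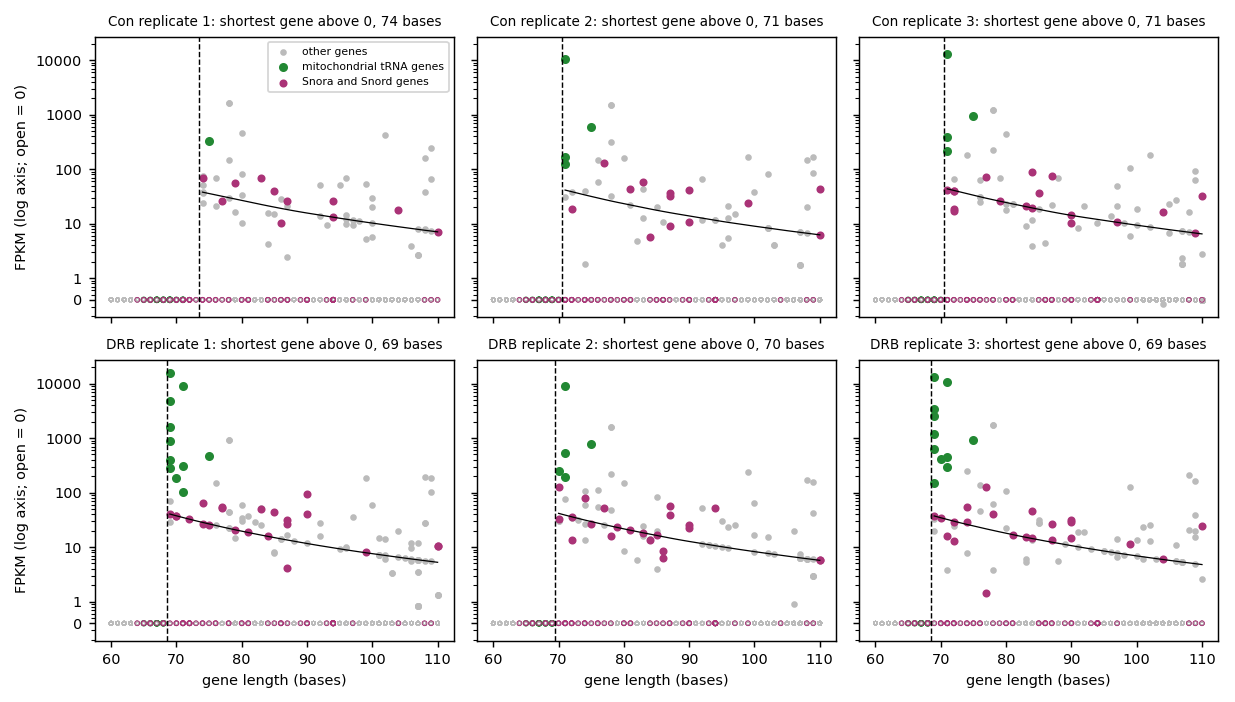
FPKM (log axis, with open markers for 0) against gene length in bases for genes of 60 to 110 bases, 1 panel per library; the dashed line stands at the floor and the solid line is the value of 1 fragment. By definition no gene lies above 0 to the left of the dashed line, which is at 71 to 74 bases in Con and at 69 to 70 in DRB, and many Snora and Snord values lie on the solid line.

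Above the floor, 1 fragment was worth a large value. At 74 bases it came to 37.8, 33.7 and 35.6 FPKM in the Con libraries, in order of replicate number, and 28.4, 31.3 and 26.04 FPKM in the DRB libraries. At 90 bases it was 15.7, 13.8 and 14.2 FPKM in Con and 11.6, 12.7 and 10.6 in DRB. At 130 bases, a usual Snora length, it was 3.78, 3.35 and 3.48 in Con and 2.85, 3.08 and 2.59 in DRB. The steps fell with length more steeply than plain division by gene length would give, in Con replicate 1 from 37.8 FPKM at 74 bases to 2.29 at 150. They were larger in each Con library than in each DRB library at these lengths. The same number of fragments therefore gave a higher FPKM in Con.

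Dividing each value by its step gave the number of fragments behind it, for lengths up to 190 bases. Of 222 values above 0, 150 (67.6%) stood for at most 3 fragments and 24 for more than 10. Of the 56 genes with a step, 30 never passed 3 fragments in any library, and 8 passed 10 in at least 1 library (Snora7a, Snora9, Snora21, Snora26, Snora31, Snora47, Snora57 and Snora81), all of them H/ACA genes. Snora73b, Snora74a and Snord17 were too long for this estimate.

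The form of the values went with position in the host gene. For the 23 members that lie within introns of all transcripts of their host, 79 of 84 values under 10 fragments were within 0.05 of a whole number of fragments (94%), and for the 6 without a host 14 of 14 were. For the 30 members that overlap an exon of a host transcript only 12 of 100 were (12%), and 33 of these values were below 1 fragment. Evenly spread values would give 10%. Snora19, of which a copy with the same sequence exists as Gm23658, was the exception among intronic genes, at 1.58, 0.50 and 0.50 fragments in Con and 1.00, 2.50 and 0.50 in DRB. How the authors' tool divided fragments between overlapping features is a detail not given in the sources used here. Its part in the fractional values was not tested.

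**Figure D2:**
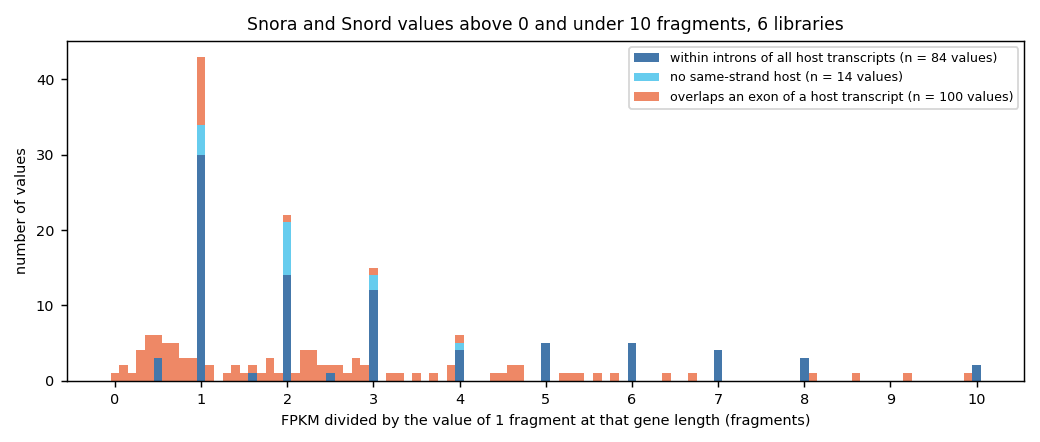
Number of values (vertical axis) by estimated fragments (horizontal axis, bins of 0.1) for snoRNA values above 0 and under 10 fragments, stacked by position relative to the host gene. The 84 intronic values and the 14 without a host pile up on whole numbers, while most of the 100 values of exon-overlapping genes lie between them.

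Among the members, H/ACA genes were seen in more libraries than C/D genes. They were also longer, with a median of 133 against 84 bases, so class and length cannot be told apart here. Of the Snora members 12 were above 0 in all 6 libraries and of the Snord members 5, so 17 in all. Among these 17 the highest library was 2.37 to 30.4 times the lowest, with a median of 5.93. Snora78 had the smallest spread and Snora47 the largest. Within a group the median ratio of highest to lowest was 3.58 over the Con and 3.64 over the DRB libraries, so libraries of 1 group already differed several-fold.

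**Figure D3:**
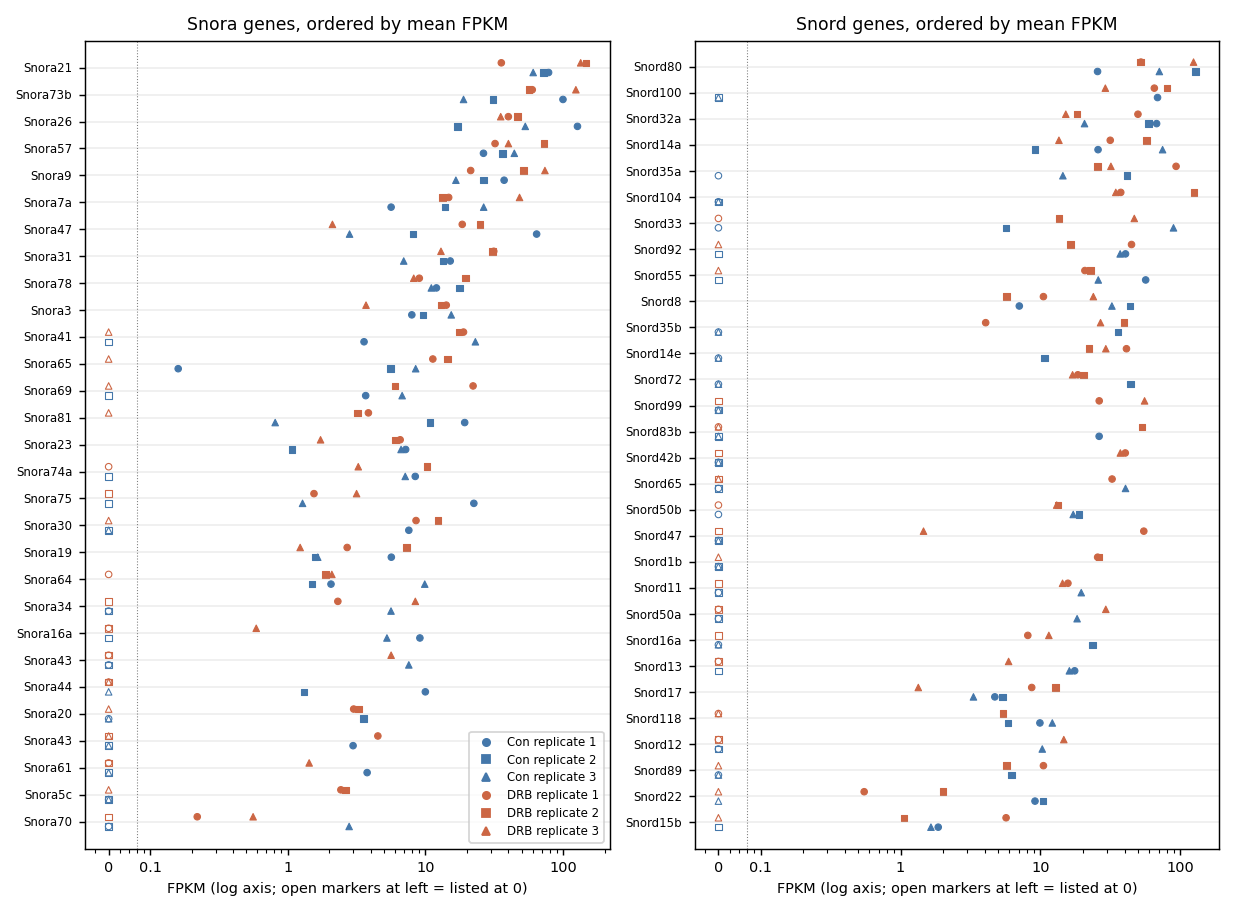
FPKM in each library (log axis, with open markers at the left edge for values listed at 0) of the 29 Snora and 30 Snord genes, ordered by mean; blue is Con, orange DRB, and marker shape gives the replicate. Con and DRB markers overlap in nearly every row, and zeros fill the lower rows of both panels.

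Snora21 had the highest mean of the H/ACA genes. It guides pseudouridylation of ribosomal RNA, and its host Rpl23 encodes a large-subunit protein. It was at 78.4, 72.2 and 60.6 FPKM in Con and at 35.6, 146 and 134 FPKM in DRB (always in order of replicate number), which is 25, 25.95 and 20.97 fragments and 15.02, 56.9 and 61.9 fragments. DRB replicate 1 was below all Con libraries and the other DRB libraries were above them, so the groups overlapped (Con mean 70.4 ± 9.04 FPKM, DRB mean 105 ± 60.6, SD, n = 3 each).

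Snora73b was at 99.7, 30.9 and 18.9 FPKM in Con and 59.6, 56.3 and 124 in DRB, with Con replicate 1 among the DRB values. Snora26, which overlaps an exon of the non-coding gene Dancr, was at 127, 17.1 and 53.1 FPKM in Con and 40, 46.6 and 35.2 in DRB. Snora57 was at 26.4, 36.2 and 44.2 FPKM in Con and 32.0, 72.8 and 40.04 in DRB, from 10.99 to 36.95 fragments. Here the Con libraries bracketed the DRB libraries for Snora26, while for Snora57 DRB replicate 2 stood highest.

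Snora9, which overlaps an exon of Snhg15, was at 37.3, 26.5 and 16.6 FPKM in Con and 21.3, 51.7 and 73.7 in DRB. Snora7a, which overlaps an exon of Rpl32, was at 5.63, 13.9 and 26.5 FPKM in Con and 14.7, 13.2 and 48.2 in DRB. Snora31, in an intron of the translationally controlled tumour protein gene Tpt1, was at 15.1, 13.4 and 6.95 FPKM in Con and 31.3, 30.8 and 12.96 in DRB, which is 4, 4 and 2 against 11.01, 10 and 5 fragments. For these genes the highest library was a DRB library and the groups overlapped. Snora47, in an intron of Zbed3, ran the other way, with 64.2, 8.12 and 2.81 FPKM in Con and 18.5, 24.97 and 2.11 in DRB, so that Con replicate 1 alone held 20.99 fragments and Con replicate 3 and DRB replicate 3 held 1 each.

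The lower H/ACA genes seen in all libraries rested on few fragments. Snora78, inside Snhg9 and opposite Rps2, had 3, 5 and 3 fragments in Con and 3, 6 and 3 in DRB (12.01, 17.7 and 11.03 against 9.02, 19.5 and 8.22 FPKM). Snora23, inside the importin gene Ipo7, had 5.96, 1 and 6 fragments in Con and 6.98, 5.98 and 2 in DRB. Snora3, which overlaps an exon of Rpl27a, was at 7.96, 9.60 and 15.4 FPKM in Con and 14.2, 12.98 and 3.70 in DRB. Snora19 was at 5.65, 1.58 and 1.65 FPKM in Con and 2.70, 7.29 and 1.23 in DRB. None of these separated the groups. Snora43 stands in the files as 2 overlapping models of 127 and 139 bases, both members, each above 0 in 2 libraries with 1 or 2 fragments, so these are uncertain.

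Snord80 had the highest mean of the C/D genes. It guides methylation of ribosomal RNA and overlaps an exon of Gas5, a non-coding gene that hosts many snoRNAs. It was at 25.6, 128 and 70.7 FPKM in Con and 52.2, 51.9 and 124 in DRB. Despite these high FPKM it amounted to 0.81, 4.62 and 2.42 fragments in Con and 2.23, 2.01 and 5.77 in DRB. The same host Gas5 was at 1214 to 1907 FPKM.

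Rpl13a, a large-subunit protein gene, hosts 3 C/D members that had no common pattern. Snord32a was at 67.6, 59.1 and 20.6 FPKM in Con and 49.7, 18.2 and 15.2 in DRB, which is 3.01, 3 and 1 fragments against 3, 1 and 1. Snord35a was at 0, 41.5 and 14.5 FPKM in Con and 93.1, 25.5 and 31.9 in DRB, or 0, 3 and 1.02 against 8, 2.01 and 3 fragments. Snord33, which overlaps a host exon, was at 0, 5.65 and 89.2 FPKM in Con and 0, 13.5 and 46.8 in DRB. Rpl13a itself was at 1299.65, 1320.03 and 931 FPKM in Con and 882, 804 and 860 in DRB.

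The other C/D genes seen in all libraries were Snord14a, Snord8 and Snord17. Snord14a was at 25.8, 9.14 and 74.6 FPKM in Con and 31.5, 57.2 and 13.6 in DRB. Snord8, a guide for the spliceosomal U6 RNA inside Chd8, had 1, 6.99 and 5 fragments in Con and 2, 1 and 5 in DRB (7.06, 43.5 and 32.4 against 10.5, 5.70 and 23.9 FPKM). Snord17, the longest member, inside Snx5, was at 4.72, 5.35 and 3.32 FPKM in Con and 8.66, 12.9 and 1.34 in DRB. Snord92, inside Wdr43, was at 40.5, 0 and 37.1 FPKM in Con and 44.7, 16.4 and 0 in DRB, or 2.02, 0 and 2.02 against 3, 1 and 0 fragments. For Snord14a, Snord8 and Snord92 the Con range held at least 1 DRB library, and for Snord17 the DRB libraries lay on both sides of the Con range.

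Whether snoRNA genes differed between DRB and Con embryos was tested in a limma fit over all genes, on log2(FPKM + 1), with genes of at least 1 FPKM in at least 3 libraries. Of the members 44 (22 Snora and 22 Snord) entered and 15 did not, 13 of which were above 0 in exactly 2 libraries. The test called 2 members, both Snord and both higher in DRB (Snord104 and Snord14e), beside 295 of 11893 genes, a background of 2.48% (1.53% called higher). For 44 genes that background amounts to about 1 gene, so the count is no result about snoRNA genes as a class. At unadjusted p below 0.05 there were 5 members, 4 of them higher, beside 18.1% of all genes. The median log2 fold change was 0.31 over the members (0.36 for Snora, 0.23 for Snord), with 28 of 44 above 0, and -0.09 over all tested genes. It rests on single libraries: it was -0.18 with 16 of 39 above 0 without DRB replicate 2, -0.06 with 18 of 37 without DRB replicate 1, and -0.03 with 19 of 40 without Con replicate 2. Without Con replicate 1, Con replicate 3 or DRB replicate 3 it was 0.40, 0.40 and 0.56. Each of these fits tested fewer members, so the medians are not over the same genes.

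The standard error of the log2 fold change had a median of 0.82 over the members, 0.62 for Snora and 1.01 for Snord, against 0.42 over all tested genes. Groups did not overlap in 3 members (6.8%), with Snord14e and Snord104 above and Snord118 below, beside 23.8% of all tested genes. Differences of the size seen in most members were thus not detectable with these libraries.

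**Figure D4:**
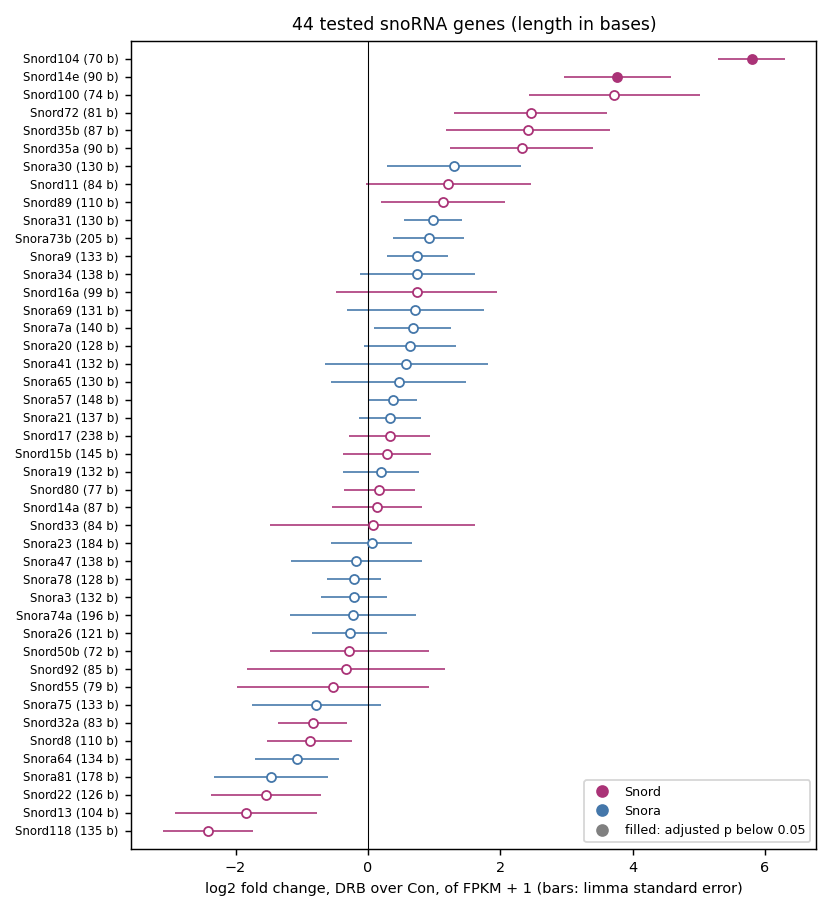
Log2 fold change of DRB over Con on the log2(FPKM + 1) scale with limma's standard error for the 44 tested snoRNA genes, with gene length in bases in parentheses. Filled markers (Snord104 and Snord14e) have an adjusted p below 0.05, and the Snord genes fill both ends. All tested Snora genes lie from -1.47 (Snora81) to 1.296 (Snora30).

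Snord104 had the largest log2 fold change, and its length puts it under the floor of the control libraries. It was listed at 0 in all 3 Con libraries and at 37.5, 125 and 34.5 FPKM in DRB, which is 1, 3 and 1 fragments. The fitted log2 fold change was 5.80 (SE 0.51, limma adjusted p = 0.000378) and depends on the added 1 FPKM, so it is no measure of size. At 70 bases the gene is shorter than any gene above 0 in a Con library, where the floor was 71 to 74 bases. In the fit to all libraries it was also the only member to pass the filter through 1 group alone, and a gene that passes in this way had to differ. Its difference and the difference in floor between the groups cannot be told apart.

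Snord14e, a U14 gene, was at 0, 10.7 and 0 FPKM in Con and at 41.2, 22.3 and 29.3 in DRB (mean 3.57 ± 6.18 and 30.9 ± 9.56 FPKM, SD, n = 3 each). At 90 bases it lies clear of the floor. The estimated fragments were 0, 0.77 and 0 in Con and 3.54, 1.76 and 2.76 in DRB. All DRB libraries lay above all Con libraries. Its log2 fold change was 3.77 (SE 0.81, limma adjusted p = 0.0366). The call held in 1 of the 6 fits without 1 library (without Con replicate 2), and was lost without Con replicate 1 or 3 and without any DRB replicate, where log2 fold changes were 3.18 to 3.98. Without Con replicate 2 the Con libraries left were at 0, so it passed the filter through DRB alone. The call in that fit therefore says nothing of stability. Its host Hspa8, a constitutive chaperone gene, was at 1521, 1196 and 1018 FPKM in Con and 1570.45, 929 and 807 in DRB (log2 fold change -0.22, SE 0.30, adjusted p = 0.771). Snord14e overlaps an exon of a Hspa8 transcript and its fragments are not whole numbers. Hspa8 also hosts Snord14c and Snord14d, which were above 0 in 1 library each and are not members. Snord14a, with the same role, stood at a log2 fold change of 0.14 (SE 0.68, adjusted p = 0.94).

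Snord100, Snord72 and Snord35b had the next largest log2 fold changes and did not pass the test. Snord100, which overlaps an exon of Rps12 and is exactly 74 bases long, was at 68.6, 0 and 0 FPKM in Con and 65.1, 80.02 and 29.1 in DRB, or 1.81, 0 and 0 against 2.30, 2.55 and 1.12 fragments (log2 fold change 3.73, SE 1.296, limma adjusted p = 0.157). Snord72, in an intron of Rpl37, had 0, 2 and 0 fragments in Con and 1 in each DRB library (log2 fold change 2.46, SE 1.159, adjusted p = 0.293). Snord35b was at 0, 35.9 and 0 FPKM in Con and 4.06, 39.6 and 26.9 in DRB (2.43, SE 1.24, adjusted p = 0.329). Each of these genes was above 0 in only 1 Con library, and was called when that library was left out. Snord100 passed without Con replicate 1 (log2 fold change 5.77), and Snord72 (4.29) and Snord35b (4.16) passed without Con replicate 2. The Con libraries left were then at 0, so each gene passed the filter through DRB alone and had to differ. These calls are thus no evidence of a difference.

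Snord118, Snord13 and Snord22 had the lowest log2 fold changes and did not pass the test. Snord118 was at 9.91, 5.85 and 12.2 FPKM in Con and 0, 5.39 and 0 in DRB, which is 3, 2 and 3.99 fragments against 0, 2 and 0. By fragments Con replicate 2 and DRB replicate 2 were equal at 2, although by FPKM the groups did not overlap. The log2 fold change was -2.42 (SE 0.68, limma adjusted p = 0.0917), and Snord118 passed the test without DRB replicate 2 (-3.31). In that fit the DRB libraries left were at 0, so it passed the filter through Con alone and had to differ. Snord13 had 2, 0 and 2 fragments in Con and 0, 0 and 1 in DRB (-1.84, SE 1.07, adjusted p = 0.405). Snord22, which overlaps an exon of Snhg1, was at 9.14, 10.4 and 0 FPKM in Con and 0.55, 2.01 and 0 in DRB (-1.54, SE 0.83, adjusted p = 0.36).

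Among the H/ACA genes Snora81 and Snora64 were lowest. Snora81, which overlaps an exon of the helicase gene Eif4a2, was at 19.3, 10.8 and 0.81 FPKM in Con and 3.85, 3.21 and 0 in DRB (log2 fold change -1.47, SE 0.86, limma adjusted p = 0.406). Snora64, which overlaps an exon of Rps2, was at 2.06, 1.5 and 9.88 FPKM in Con and 0, 1.88 and 2.09 in DRB (-1.08, SE 0.63, adjusted p = 0.409). The only H/ACA gene with an unadjusted p below 0.05 was Snora31 (log2 fold change 0.99, SE 0.44, limma adjusted p = 0.262).

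Members at 0 throughout a group were few and low. Listed at 0 in all Con libraries were Snord47, Snord104, Snord42b, Snora5c, Snord1b and Snord99, 4 of them at least 74 bases long, and at 0 in all DRB libraries was Snora44. Snord99 was at 26.3 and 55.4 FPKM in DRB replicates 1 and 3, or 0.93 and 2.13 fragments. Snord47 was at 54.7 and 1.46 FPKM in DRB replicates 1 and 3, or 2.34 and 0.07 fragments. Snora44 was at 9.98 and 1.31 FPKM in Con replicates 1 and 2, or 2.56 and 0.38 fragments. All of these except Snord104 were above 0 in exactly 2 libraries and were not tested. The members named here were chosen after their values were seen.

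Summed over the members of each class, the Snord genes were higher in every DRB library. Their sum was 361, 448 and 504 FPKM in Con and 698, 618 and 576 in DRB (mean 438 ± 72 and 631 ± 61.6, SD, n = 3 each). Without the 5 members shorter than 74 bases it was 361, 429 and 428 FPKM against 587, 480 and 462. The groups still did not overlap, and the difference of the means went from 192.9 to 103.6 FPKM. In fragments the members of at least 74 bases gave 22.0 to 31.8 in Con and 30.7 to 40.1 in DRB, which overlap. The Snora sum was 580, 271 and 343 FPKM in Con and 364, 560 and 510 in DRB (398 ± 161 and 478 ± 101), with Con replicate 1 the highest of all. All members together made 0.061% to 0.103% of a library's FPKM.

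The number of members above 0 was 37, 32 and 40 in Con and 46, 42 and 41 in DRB. The Snord genes carried this, with 13, 15 and 17 against 23, 21 and 21, while the Snora genes gave 24, 17 and 23 against 23, 21 and 20. With members of at least 74 bases alone, the Snord counts were 13, 14 and 14 in Con and 20, 19 and 17 in DRB. The members were chosen for being above 0. Over all 70 Snord rows of at least 74 bases, members or not, the counts were 15, 15 and 16 in Con and 21, 23 and 18 in DRB, which do not overlap either. Other genes of 74 to 110 bases with 1 annotated transcript, 2839 in all, gave 55, 44 and 68 above 0 in Con and 78, 62 and 54 in DRB, so there the groups overlapped. The part of the smaller DRB steps in these counts was not tested.

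Host genes were far above their snoRNAs. The 53 members with a host on the same strand lie in 46 host genes, of which 35 are protein-coding and 17 encode ribosomal proteins. By their means over the libraries, 47 of the 53 members were below their host. Per length, the members above their host were in weakly expressed genes, such as Snora73b with a mean of 64.8 FPKM in Rcc1 (23.4 FPKM) and Snora47 with 20.1 in Zbed3 (15.7). Hosts of members of at least 74 bases had a median mean of 395 FPKM (n = 49), against 168 for the 57 hosted snoRNA rows of that length that were above 0 in at most 1 library. A host was counted once for each row it holds, and Snhg14 alone stood for 17 of the 57, so these medians are not over separate hosts. Fragments of the snoRNA itself and of host RNA, spliced or unspliced, cannot be told apart in values per gene. An intron of an abundant host can give fragments of the snoRNA and of unspliced host RNA. For the 30 members that overlap a host exon, spliced host RNA can give fragments too.

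Of the 46 hosts 44 were tested, and 1, Snhg12, was called, beside 2.48% of all genes. At unadjusted p below 0.05 there were 8 of 44, beside 18.1% of all genes, so both counts are near the background. Snhg12 is a non-coding gene that hosts Snora16a, Snora44, Snora61 and Snord99, and it was at 65.1, 75.2 and 71.7 FPKM in Con and 163, 186 and 174 in DRB (log2 fold change 1.29, SE 0.25, limma adjusted p = 0.0237). Its snoRNAs rested on few fragments and had no common direction. Snora16a was at 9.11, 0 and 5.25 FPKM in Con and 0, 0 and 0.59 in DRB, Snora61 was above 0 in Con replicate 1 and DRB replicate 3 (3.77 and 1.43 FPKM), and Snora44 and Snord99 are given above. The host rose, and none of the 4 passed the filter for the test.

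By kind of host the counts at unadjusted p below 0.05 are again to be read beside 18.1% of all genes. Of 10 tested non-coding hosts 8 had a log2 fold change above 0, with a median of 0.28, and 4 had an unadjusted p below 0.05, all higher in DRB. Of 17 ribosomal protein hosts 2 were above 0, with a median of -0.32, and 2 had an unadjusted p below 0.05, both lower (Rpl3 and Rpl27a). Of 17 other coding hosts 11 were above 0, with a median of 0.04. This grouping was made with the values known and was not tested. Snhg1, host of Snord22, was at 242, 270 and 240 FPKM in Con and 551, 520 and 433 in DRB (log2 fold change 0.99, SE 0.24, limma adjusted p = 0.0576). Snhg15, host of Snora9, was at 307, 478 and 380 FPKM in Con and 513, 983 and 833 in DRB (0.97, SE 0.30, adjusted p = 0.123). For both, all DRB libraries lay above all Con libraries, yet Snord22 had a log2 fold change of -1.54 and Snora9 of 0.75 (SE 0.46, adjusted p = 0.431).

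SnoRNA genes and their hosts had no common direction. Over the 38 members with both values, log2 fold changes had the same sign in 15, and correlated with Pearson's r of -0.23 and Spearman's rho of -0.10. These points share libraries, some share a host, and many rest on a few fragments, so the correlation is a description. For Eif4a2, host of Snora81, it was 0.95 with an SE of 0.27 (limma adjusted p = 0.0935), against -1.47 for Snora81.

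**Figure D5:**
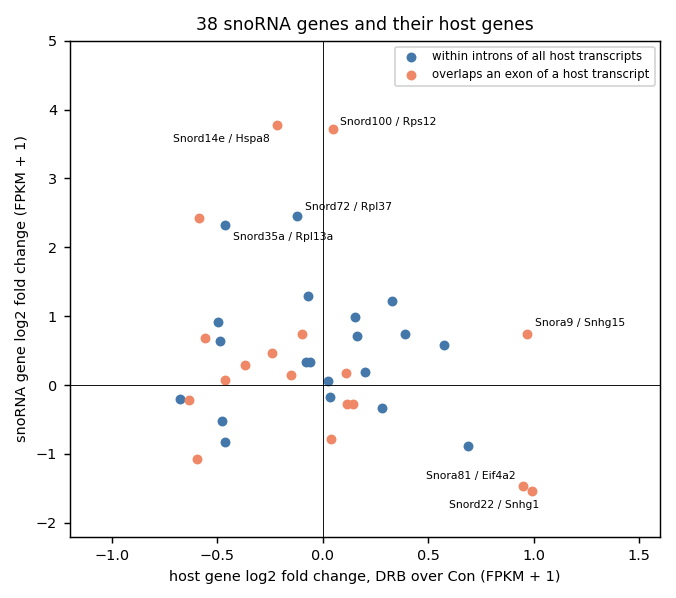
Log2 fold change of each of 38 snoRNA genes (vertical axis) against that of its host gene (horizontal axis), DRB over Con on the log2(FPKM + 1) scale, coloured by position in the host. The points scatter without a common slope, and the genes with the largest values, such as Snord14e and Snord100, have hosts near 0.

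The proteins that hold snoRNAs did not pass the test. Fibrillarin (Fbl), the methyltransferase of C/D particles, was at 66.4, 105 and 115 FPKM in Con and 219, 78.3 and 72.7 in DRB, with DRB replicate 1 alone above all Con libraries (log2 fold change 0.21, SE 0.42, limma adjusted p = 0.849). Nop56 and Nop58, which scaffold the particle, had log2 fold changes of 0.10 and 0.33, and Snu13, which binds the kink made by boxes C and D, of -0.29. Of the 4 C/D core proteins 3 were above 0 and none was called, with a median of 0.16. For H/ACA particles, the pseudouridine synthase dyskerin (Dkc1) was at 243, 97.5 and 125 FPKM in Con and 140, 108 and 115.72 in DRB (-0.25, SE 0.34, adjusted p = 0.762). Gar1, Nhp2 and Nop10, its partners, had log2 fold changes of 0.30, -0.34 and -0.33, with a median over the 4 of -0.29 and none called.

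Of the assembly factors 14 of 15 were in the files and tested, none was called and 2 had an unadjusted p below 0.05, beside 18.1% of all genes. Those were Ruvbl2 and Shq1, named after their values were seen. Ruvbl2, a helicase subunit of the assembly machinery, was at 57.6, 60.2 and 43.3 FPKM in Con and 34.7, 19.9 and 23.7 in DRB, all DRB libraries below all Con libraries (log2 fold change -1.03, SE 0.32, limma adjusted p = 0.118). Shq1, which escorts dyskerin, was at 3.47, 1.14 and 2.89 FPKM in Con and 4.02, 7.54 and 8.35 in DRB (1.14, SE 0.46, adjusted p = 0.22). The most abundant assembly factors were Znhit3, with a mean of 3093 FPKM (log2 fold change 0.14, SE 0.31), and Znhit6, with 201 FPKM (0.06, SE 0.24). Of the 7 trimming and decay enzymes none was called and 1 had an unadjusted p below 0.05. Tent4b, which encodes a poly(A) polymerase that marks nuclear RNA for trimming (68.98 FPKM, log2 fold change -0.52, SE 0.33), and Dis3, which encodes a catalytic subunit of the exosome (67.8 FPKM, 0.30, SE 0.38), were the most abundant of that list. Dbr1, whose product opens the lariats that hold intronic snoRNAs, was the 1 with an unadjusted p below 0.05, and is named after its values were seen. It was at 5.43, 6.12 and 7.26 FPKM in Con and 31.8, 15.2 and 16.9 in DRB (log2 fold change 1.55, SE 0.39, limma adjusted p = 0.0631), so that all DRB libraries lay above all Con libraries.

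Outside the members stood 82 rows, 59 of them at 0 in every library and 23 above 0 in 1 library. Just outside the threshold, the values of these 23 ran from 2.34 to 41.2 FPKM with a median of 13.1 FPKM and 1 fragment. Just inside it, the 13 members above 0 in exactly 2 libraries had values of 1.31 to 55.4 FPKM with a median of 16.5 FPKM, also 1 fragment. The edge of the set is thus drawn by 1 fragment. The largest group without signal was that of Snhg14, the host of the imprinted Snord115 and Snord116 genes, which are known from the brain. All 17 rows it hosts were at 0 in all libraries, while Snhg14 itself was at 83.8 to 332 FPKM.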

How the data were processed

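The submitters deposited FPKM values per gene for 6 libraries made by Smart-Seq2 (oligo-dT priming, shearing of the amplified cDNA, paired ends), per the labels' protocols. Per the submitters' processing notes, cutadapt 1.16, STAR and the build mm10 were used. What computed the FPKM, and how it treated short genes and shared fragments, are details not given in the sources used here. Of the gene IDs all 141 snoRNA rows matched GENCODE M21, from which lengths, hosts (a same-strand gene that contains the snoRNA) and sequences were taken, and 181 other IDs did not match.

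The package limma 3.58.1 (R 4.3.3) was run on log2(FPKM + 1) for genes that reached 1 FPKM in 3 or more libraries, two-sided, with a mean-variance trend, group as the only term and Benjamini-Hochberg adjustment over 11893 genes, called below 0.05. The value of 1 fragment per library and length was fitted to the spacing of FPKM values of genes with 1 transcript of up to 330 bases, leaving out all snoRNA rows, and used up to 190 bases. Both procedures were run on simulated data. Those for limma held no fragment steps and no length floor, so they do not show how the test does on values of few fragments. Those for the step fit drew fragment lengths from the kind of curve that the fit itself assumes at its long end. Other scripts used Python 3.11.15. Whether replicates are separate embryo collections is not stated, so the p-values reflect the spread of these libraries alone, which may be technical.

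The members, gene lists and tests were chosen with earlier results of these data known. Named were the called members, members at 0 in 1 group and above 0 throughout the other, those above 0 in all libraries, the 8 Snora and 8 Snord of highest mean, the 5 highest and 5 lowest log2 fold changes, their hosts, the core proteins, and of each other list the 2 most abundant genes. The host of 1 named gene is not reported here. Others named were chosen after their values were seen. Alternatives were another pseudocount and filters, other scalings, a replicate block, no trend, each library left out and, added after seeing the data, no genes under 74 bases.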

Additional observations from a re-analysis of the deposited data

How the results depend on the processing

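The count of snoRNA genes called was 2 and stayed at 2 under median-of-ratios scaling and a common total without mitochondrial genes. It was 1 (Snord104) with a pseudocount of 0.1, with genes above 0 FPKM in at least 2 libraries, with the replicate block and without the mean-variance trend, 0 without a filter, and 1 (Snord14e) without genes under 74 bases. Leaving out 1 library at a time gave 0 to 4. Each member called in those fits was at 0 in all libraries left of 1 group. The genes called among all tested went from 295 to 164, 14, 171, 226, 6 and 294 under these settings in that order, and to 47 to 220 with 1 library left out. The difference of the Snord sums, 192.9 FPKM, was 103.6 without members under 74 bases, which is set by leaving out those 5 genes. For the other shifts the cause was not tested. Over 130 alternative values of 10 named genes none changed sign, 115 kept their side of the threshold, 11 lost a call and 4 gained one. These genes are the 5 highest and 5 lowest log2 fold changes, so a kept sign was likely in advance. The 4 gains came in fits where the libraries left of 1 group were all at 0, so this tally is no measure of stability. Snord14e kept its call in 4 of 14 alternatives, among them the fit without Con replicate 2, where it passed the filter through DRB alone. For Snord104, which was not tested without any of the DRB replicates or without genes under 74 bases, the calls say nothing of stability, since it passed the filter through DRB alone. Same-numbered libraries did not deviate together (correlations of -0.047, 0.053 and -0.051), but whether the numbers pair libraries is not stated. Median-of-ratios scaling moved the median log2 fold change of all genes from -0.09 to 0, and without mitochondrial genes it was 0.02. Most values rest on at most 3 fragments, so a gene listed at 0 in a library is not shown to be absent there.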
